A study of Mus musculus with 9 samples.

Results

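The genes described here encode the Hedgehog ligand Shh, its co-receptors Boc, Cdon and Gas1, and the proteins that carry the signal inside the cell: Smo, Sufu, Kif7, Gli2 and Gli3. They were chosen by name, and all 9 were among the 14029 named genes that passed the filter on low values, out of 27360 rows in the deposited table. RNA-seq was performed on midbrain tissue of C57BL/6 mouse embryos at E13.5, with 3 libraries for each of 3 genotypes. The floxed control was Gpr161 f/f without Cre. The Cre control was Gpr161 f/+;Wnt1-Cre, which carries the Cre transgene and 1 floxed allele. The conditional knockout (cKO) was Gpr161 f/f;Wnt1-Cre. All 3 genotypes therefore carry at least 1 floxed Gpr161 allele, and in the Cre control the effects of Cre and of losing 1 allele cannot be told apart. Wnt1-Cre drives recombination in the dorsal neural tube, the midbrain and the neural crest lineage, so a dissected midbrain also holds cells that never expressed Cre. The labels do not state whether a library came from 1 embryo or from several, and the p-values measure the spread between these libraries.

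Shh is secreted by the floor plate at the ventral midline of the neural tube and forms a gradient that patterns the midbrain from ventral to dorsal and sustains progenitor division. Without ligand, the receptor Ptch1 holds Smo inactive, and the cilium protein Gpr161 keeps protein kinase A active, so that Gli3 and, to a lesser extent, Gli2 are processed into repressors. When ligand binds Ptch1 together with Boc, Cdon or Gas1, Smo enters the cilium, Gpr161 leaves it, and the Gli proteins escape Sufu and Kif7 to act as activators, with Gli1, Ptch1 and Hhip among the transcriptional targets.

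The values are the deposited log2 expression levels. Their transformation is not given and it compresses low levels, so the folds, CPM and levels per length given here are of the deposited values and not of read counts. CPM here are linear values scaled to the library's sum. The linear values summed to between 26609942 and 27496648 per library, with library medians of 9.72 to 9.75 on the log2 scale, so the libraries had been brought to a common scale and read depth is unknown. Gpr161, the floxed gene, had log2 levels of 11.77 ± 0.0300 in floxed control, 11.88 ± 0.0963 in Cre control and 11.88 ± 0.123 in cKO (SD, n = 3), and was not lower in cKO. Each gene has a single value that pools all its exons, so the deletion itself is not checked by it. Otx2 and En1, used here as midbrain markers though not exclusive to it, averaged 11.32 to 11.47 and 10.71 to 10.84 on the log2 scale across the 3 genotypes.

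The order of the 9 genes can be read per length. Each linear value was divided by the length of the gene's merged exons and then scaled to the library's sum of these values. Smo, the membrane protein that starts the intracellular signal, had the highest median level on this scale, at 102 in floxed control, 112 in Cre control and 121 in cKO. Gas1, a membrane-anchored co-receptor, came next at 79.3, 104 and 91.9. Smo and Gas1 overlapped in the Cre control. The immunoglobulin-family co-receptors followed, with Boc at 52.9, 53.5 and 42.1 and Cdon at 34.0, 34.7 and 27.4. Shh had 26.0, 27.4 and 22.9 in the same order of genotypes. Sufu had 20.9, 20.8 and 20.2, and Gli3 20.2, 23.0 and 19.1. Gli2 and Kif7 had the lowest of the 9 levels per length, with Gli2 at 10.6, 12.6 and 13.0 and Kif7 at 10.8, 10.3 and 11.4. Sufu and Gli3 overlapped in every genotype, and Gli2 and Kif7 overlapped in floxed control, so their order there is not resolved. Shh overlapped Gli3 in floxed control and in cKO, and in cKO it also overlapped Cdon and Sufu. The sum behind this scale differs between libraries, so it orders genes within a genotype and is not used to compare genotypes. For example, mean Sufu was 20.4 in both floxed control and cKO on this scale, though its log2 difference in the deposited values was 0.10.

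**Figure D1:**
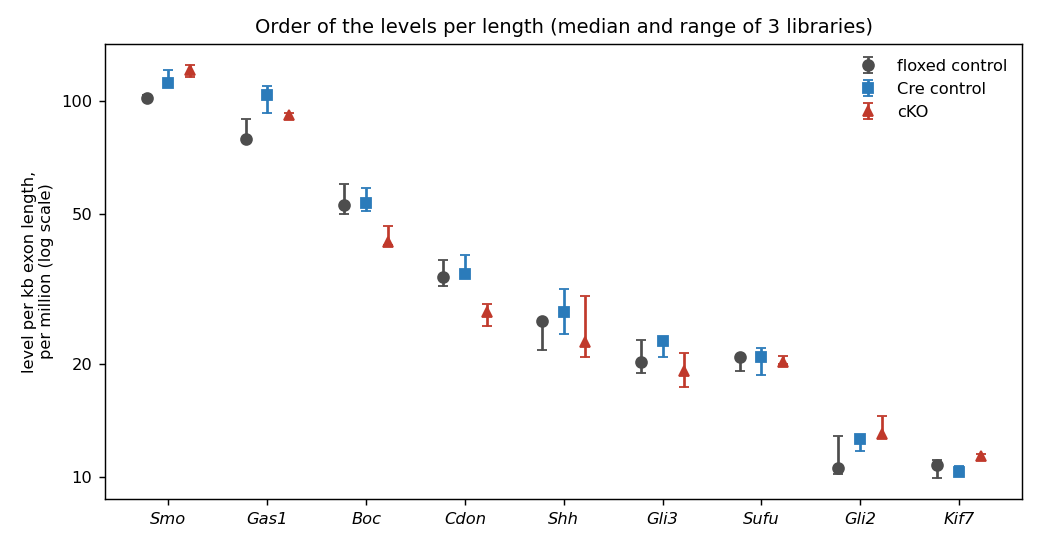
Level per length of each Hedgehog gene by genotype, scaled to the library's sum of such levels, on a log axis. Points are medians and bars are the range of 3 libraries. Smo sits highest, with medians of 102 to 121, and Gli2 and Kif7 sit lowest, with medians of 10.3 to 13.0.

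In cKO against floxed control, 4 of the 9 genes were higher (Gas1, Smo, Kif7 and Gli2), 2 were lower (Boc and Cdon), and Shh, Sufu and Gli3 did not pass the test (limma, Benjamini-Hochberg adjusted p under 0.05 over all genes tested). Among all genes tested, 38.3% passed in this comparison, 19.5% as higher and 18.8% as lower. In cKO against Cre control, Kif7 was higher, Cdon was lower, and 7 did not pass. Of all genes 9.72% passed there, 4.86% as higher and 4.85% as lower, or 682 and 681 genes (532 and 831 when libraries were centred on their medians). These 2 genes were thus called in the same direction against both controls, as were 9.34% of all genes. In Cre control against floxed control 0 of the 9 passed in the limma test, against 0.0570% of all genes, and 2 of them, Gas1 and Smo, had an unadjusted p under 0.05, against 17.5% of all genes. No difference reached a fold change of 1.5, which 2.92% of all genes passed together with the adjusted p in cKO against floxed control and 0.563% in cKO against Cre control. The median log2 difference of the 9 genes was 0.10 against floxed control, -0.08 against Cre control and 0.13 for Cre control against floxed control, where the medians of all genes tested were 0.01, 0.01 and -0.00. The libraries did not overlap between cKO and floxed control for 7 of the 9 genes (57.1% of all genes), between cKO and Cre control for 5 (31.5%), and between the controls for 2 (22.8%). For 5 of the 9, every cKO library lay outside all 6 controls, as did 26.2% of all genes. The comparisons share libraries, so they are not independent of one another.

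**Figure D2:**
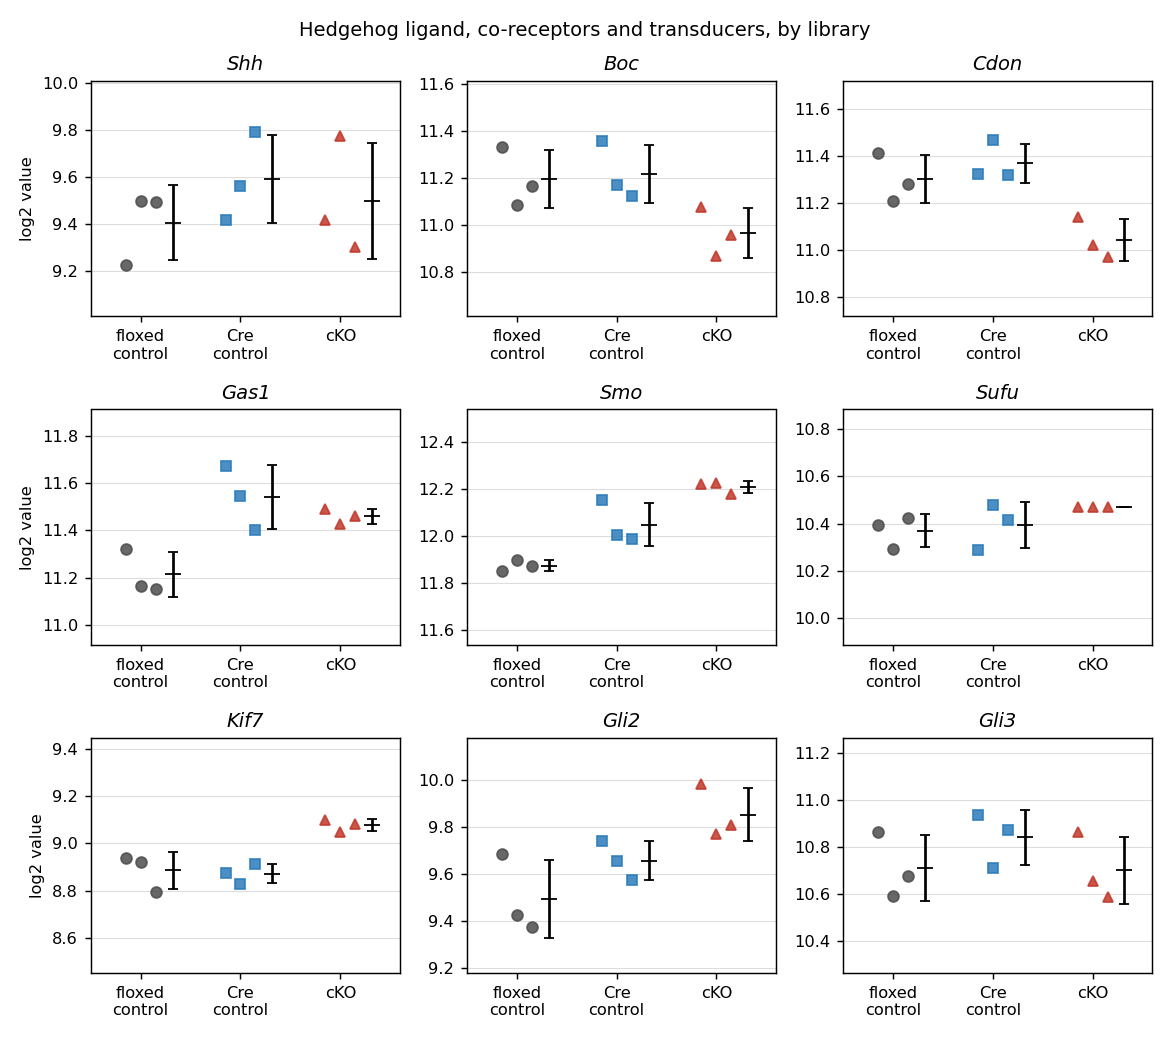
Log2 level of each of the 9 Hedgehog genes in every library, with the mean and SD of each genotype (n = 3). The cKO libraries lie below all 6 control libraries for Boc and Cdon and above all 6 for Smo, Kif7 and Gli2.

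**Figure D3:**
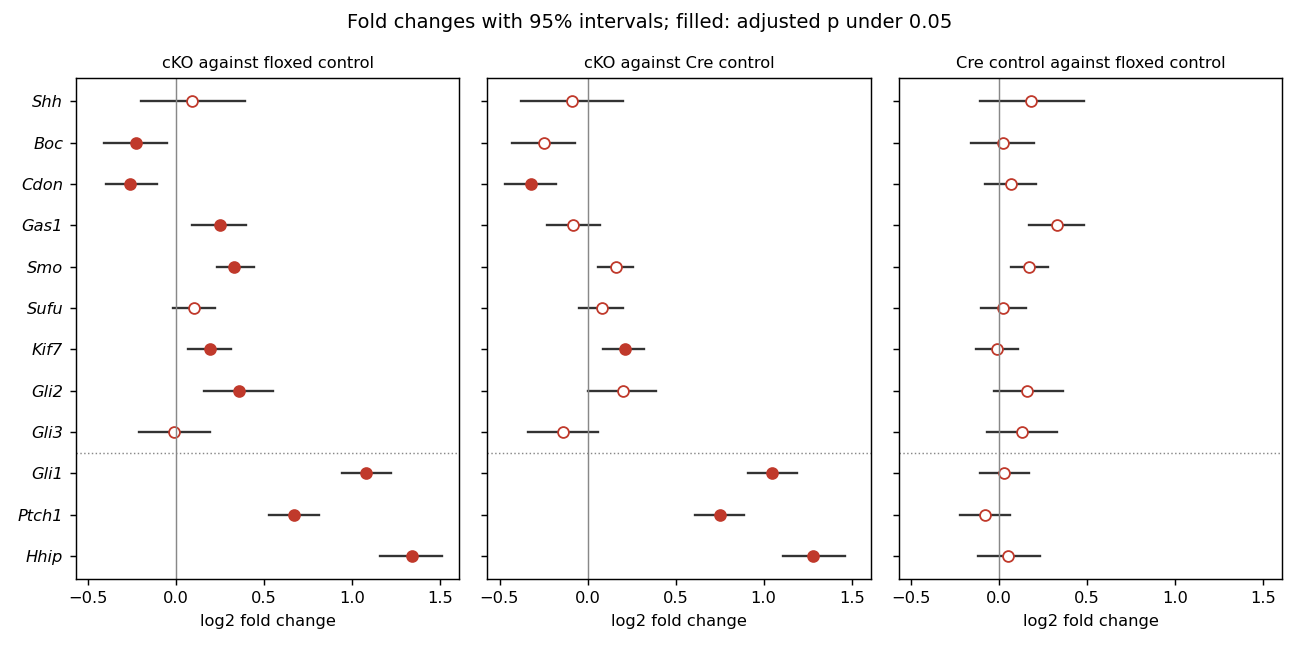
Log2 fold change of the 9 genes and, under the dotted line, of 3 pathway targets, with 95% confidence intervals from limma in the 3 comparisons (filled points passed the test). Among the 9, the largest increases of cKO against floxed control are 0.36 for Gli2 and 0.33 for Smo, and the intervals of Shh and Gli3 cross 0 in every comparison.

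Shh, the ligand, lies at chr5:28456815-28467256 on the minus strand (GRCm38), and its exons share 446 bases with 9530036O11Rik and 361 with Gm26894 on the opposite strand. Its log2 levels were 9.22, 9.50 and 9.50 in floxed control, 9.42, 9.56 and 9.79 in Cre control, and 9.42, 9.77 and 9.30 in cKO. The 3 genotypes overlapped. The log2 difference of cKO was 0.09 against floxed control (95% confidence interval -0.20 to 0.39, adjusted p = 0.608, limma) and -0.09 against Cre control (-0.38 to 0.20, adjusted p = 0.676, limma), and changes within these intervals could not be told from none. Foxa2, a transcription factor that defines the floor plate, had log2 levels of 8.75, 9.10 and 9.01 in floxed control, 8.86 to 9.25 in Cre control, and 9.05, 9.57 and 9.22 in cKO. In cKO the library with the highest Shh was also the one with the highest Foxa2. Of the 7 floor plate markers, none passed in cKO against floxed control or against Cre control (limma), and their summed level was 288 to 316 CPM in floxed control, 232 to 324 in Cre control and 298 to 345 in cKO. Shh minus the mean of these markers within a library was 0.39 ± 0.0402, 0.43 ± 0.0753 and 0.50 ± 0.0995 on the log2 scale (SD, n = 3), a smaller spread than that of Shh itself, whose SDs were 0.158, 0.187 and 0.245. Against the 6 control libraries it differed by 0.09 (exact two-sided permutation p = 0.119). With 1 library left out the exact permutation p ran from 0.0357 without cKO replicate 3, the smallest that 2 libraries against 6 allow, to 0.464 without cKO replicate 2, with differences of 0.15 and 0.05. In bulk tissue, fewer cells of a type and less RNA per cell cannot be told apart.

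Both immunoglobulin-family co-receptors were at their lowest in cKO. Boc, at chr16:44485049-44558897 on the minus strand, had log2 levels of 11.33, 11.09 and 11.17 in floxed control, 11.36, 11.17 and 11.12 in Cre control, and 11.08, 10.87 and 10.96 in cKO. Every cKO library was below all 6 controls, with the first cKO library just under the second floxed control library. The log2 difference was -0.23 against floxed control (SE 0.0810, adjusted p = 0.0479, limma) and -0.25 against Cre control (adjusted p = 0.0790, limma), the latter not past the threshold. The call against floxed control was lost in 7 of 13 refits, among them those without floxed control replicate 1 (adjusted p = 0.172, limma) or 3 (0.0903) and without cKO replicate 2 (0.158) or 3 (0.108).

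Cdon, at chr9:35421128-35507652 on the plus strand, had log2 levels of 11.41, 11.21 and 11.28 in floxed control, 11.32, 11.47 and 11.32 in Cre control, and 11.14, 11.02 and 10.97 in cKO. The cKO libraries were again the lowest 3 of the 9, and the control genotypes overlapped. Cdon in cKO was at 0.837 times its level in floxed control (log2 -0.26, SE 0.0657, adjusted p = 0.0125, limma) and 0.798 times its level in Cre control (log2 -0.32, SE 0.0657, adjusted p = 0.0200, limma). Against floxed control the call was kept in 13 of 13 refits. Against Cre control it was lost when the second (adjusted p = 0.0568, limma) or the third (0.0523) Cre control library was left out, or the second (0.0619) or the third (0.0530) cKO library, and with no filter on low values (0.0585).

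Gas1, a co-receptor anchored to the membrane by a lipid, lies at chr13:60174405-60177365 on the minus strand. Its log2 levels were 11.32, 11.16 and 11.15 in floxed control, 11.67, 11.54 and 11.40 in Cre control, and 11.49, 11.43 and 11.46 in cKO. Both genotypes with Cre were above floxed control in every library, and they overlapped each other. The log2 difference of cKO against floxed control was 0.25 (SE 0.0685, adjusted p = 0.0180, limma), and that of Cre control against floxed control was 0.33 (95% confidence interval 0.17 to 0.48, adjusted p = 0.140, limma). Against Cre control, cKO differed by -0.08 (95% confidence interval -0.23 to 0.07), which did not pass. The call against floxed control was lost without floxed control replicate 2 (adjusted p = 0.0564, limma) or 3 (0.0703), without cKO replicate 1 (0.0624), and with no filter on low values (0.0538). Gas1 exons share 589 bases with Gm48488 on the opposite strand, and whether counting used strand is not given in the sources used here.

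The co-receptors were also compared with each other inside each library. Gas1 minus Boc was -0.01, 0.08 and -0.01 on the log2 scale in floxed control, 0.32, 0.38 and 0.28 in Cre control, and 0.41, 0.56 and 0.51 in cKO. The cKO values were the highest 3, and Cre control lay between. Against the 6 control libraries pooled, the difference was 0.32 (exact two-sided permutation p = 0.0238, adjusted p = 0.0595 over 5 such differences). Gas1 minus Cdon was -0.09, -0.05 and -0.13 in floxed control, 0.35, 0.08 and 0.08 in Cre control, and 0.35, 0.41 and 0.49 in cKO. Against the pooled controls it differed by 0.37 (exact permutation p = 0.0357, adjusted p = 0.0595). Boc minus Cdon differed by 0.05 (exact permutation p = 0.476, adjusted p = 0.476). The smallest p that 3 libraries against 6 allow is 0.0119, and none of the 5 passed after adjustment. The control pool joins 2 genotypes that did not overlap in Gas1 minus Boc or in Gas1 minus Cdon.

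Markers of several cell types and regions also differed between the genotypes. Of 10 neuronal markers, 10 were lower in cKO against floxed control and 4 against Cre control (limma), and their summed level was 5498 to 5861 CPM in floxed control, 4422 to 5301 in Cre control and 3794 to 4251 in cKO. Of 10 progenitor markers, 6 and 3 were higher, with sums of 3521 to 3661, 3588 to 3843 and 3954 to 4223. Among them Nes, a progenitor intermediate filament, had log2 differences of 0.50 and 0.45, and Sox2, a progenitor transcription factor, 0.29 and 0.26. In each comparison 2 of the 10 had negative differences, the lowest being Fabp7 at -0.16 and -0.09, and 0 were called lower (limma). Of 8 markers of meninges and head mesenchyme, 6 were higher against floxed control and 0 against Cre control (limma), with sums of 667 to 1350, 935 to 1545 and 1496 to 1551. Of 5 midbrain markers 2 were lower against floxed control and 0 against Cre control (limma). These were the dorsal transcription factors Pax7 and Pax3, with log2 differences of -0.48 and -0.37 against floxed control (adjusted p = 0.00595 and 0.0128, limma) and -0.32 and -0.30 against Cre control (adjusted p = 0.0783 and 0.0740, limma). The other midbrain markers, Otx2, En1 and En2, had 0.04, 0.08 and 0.17 against floxed control. Of 3 tested hindbrain markers, Hoxa2 and Hoxb2 were lower against floxed control (log2 -0.85 and -0.89, adjusted p = 0.00273 and 0.0132, limma). Against Cre control they had 0.02 and 0.07, and the summed level of the hindbrain list was 15.5 to 19.5 CPM in floxed control, 12.6 to 16.4 in Cre control and 13.6 to 14.8 in cKO. Of 5 endothelial markers, 2 were higher against floxed control and 0 against Cre control (limma), with sums of 180 to 236, 197 to 255 and 234 to 252. Of 7 erythroid markers 5 and 2 were higher, and of 4 choroid plexus markers 1 was lower against floxed control. No forebrain marker of 3 tested and no microglial marker of 5 passed in any of the comparisons (limma). Erythroid markers summed to 5437 to 9262, 6486 to 7674 and 8362 to 16127, and choroid plexus markers to 97.4 to 522, 29.7 to 217 and 43.2 to 91.9. None of the listed markers was at 0 in these libraries. Each called Hedgehog gene was also set against the mean of the progenitor markers within a library (log2, in the order floxed control, Cre control, cKO). Kif7 averaged -3.57, -3.61 and -3.57, Smo -0.58, -0.44 and -0.44, and Gli2 -2.96, -2.83 and -2.80. Boc averaged -1.26, -1.27 and -1.68, Cdon -1.15, -1.12 and -1.60, and Gas1 -1.24, -0.95 and -1.19. The part of the markers in the results for the 9 Hedgehog genes was not tested.

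Smo, at chr6:29735503-29761365 on the plus strand, had log2 levels of 11.85, 11.90 and 11.88 in floxed control, 12.15, 12.01 and 11.99 in Cre control, and 12.22, 12.23 and 12.18 in cKO. The genotypes did not overlap, with floxed control lowest and cKO highest. Smo was 1.26-fold higher in cKO than in floxed control (log2 0.33, SE 0.0469, adjusted p = 0.000937, limma), a call kept in 13 of 13 refits. Against Cre control the log2 difference was 0.16 (95% confidence interval 0.06 to 0.26, adjusted p = 0.0587, limma), and without Cre control replicate 1 it passed (adjusted p = 0.00369, limma). Cre control differed from floxed control by 0.17 (0.07 to 0.28, adjusted p = 0.163, limma).

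Sufu, the cytoplasmic protein that holds Gli proteins, lies at chr19:46396896-46488804 on the plus strand. Its log2 levels were 10.40, 10.29 and 10.42 in floxed control, 10.29, 10.48 and 10.42 in Cre control, and 10.47, 10.47 and 10.47 in cKO. The cKO libraries were almost equal and lay just above floxed control, within the range of Cre control. The log2 differences of 0.10 against floxed control (95% confidence interval -0.02 to 0.22, adjusted p = 0.176, limma) and 0.08 against Cre control (adjusted p = 0.387, limma) did not pass.

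Kif7, a kinesin that organises the tip of the cilium, lies at chr7:79698098-79715720 on the minus strand. Its log2 levels were 8.94, 8.92 and 8.79 in floxed control, 8.87, 8.83 and 8.91 in Cre control, and 9.10, 9.05 and 9.08 in cKO. All cKO libraries were above all controls, which overlapped. The log2 difference was 0.19 against floxed control (SE 0.0534, adjusted p = 0.0179, limma) and 0.21 against Cre control (SE 0.0534, adjusted p = 0.0418, limma). Against floxed control the call was lost without floxed control replicate 3 (adjusted p = 0.0719, limma) or cKO replicate 1 (0.0611), and against Cre control it was lost in 9 of 13 refits, among them those leaving out the second (0.111) or the third (0.0918) Cre control library or any 1 of the cKO libraries (0.0848 to 0.144). Kif7 exons share 51 bases with Ticrr and 877 with the antisense gene 9330171B17Rik, both on the opposite strand.

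Gli2, a transcription factor that acts mainly as an activator of Hedgehog targets, lies at chr1:118834132-119053619 on the minus strand. Its log2 levels were 9.68, 9.43 and 9.37 in floxed control, 9.74, 9.66 and 9.57 in Cre control, and 9.98, 9.77 and 9.81 in cKO. Every cKO library was above every control library, the nearest being the first of Cre control, and the control genotypes overlapped. Gli2 was 1.28-fold higher than in floxed control (log2 0.36, SE 0.0874, adjusted p = 0.0102, limma), a call kept in 13 of 13 refits. Against Cre control the log2 difference was 0.20 (95% confidence interval 0.00 to 0.39, adjusted p = 0.168, limma).

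Gli3, the main source of Gli repressor, lies at chr13:15463235-15730026 on the plus strand. Its log2 levels were 10.86, 10.59 and 10.68 in floxed control, 10.94, 10.71 and 10.87 in Cre control, and 10.86, 10.65 and 10.59 in cKO. The genotypes overlapped. The log2 difference was -0.01 against floxed control (95% confidence interval -0.21 to 0.19, adjusted p = 0.948, limma) and -0.14 against Cre control (-0.34 to 0.06, adjusted p = 0.327, limma).

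Gli2 minus Gli3 inside each library was -1.18, -1.16 and -1.31 on the log2 scale in floxed control, -1.20, -1.06 and -1.30 in Cre control, and -0.88, -0.89 and -0.78 in cKO. The cKO values were the highest 3 of the 9, and the controls overlapped. The difference between cKO and the 6 control libraries was 0.35 (exact two-sided permutation p = 0.0119, the smallest this design allows, adjusted p = 0.0595 over the 5 differences). These are levels of mRNA, and the table holds nothing on how the Gli proteins were processed.

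**Figure D4:**
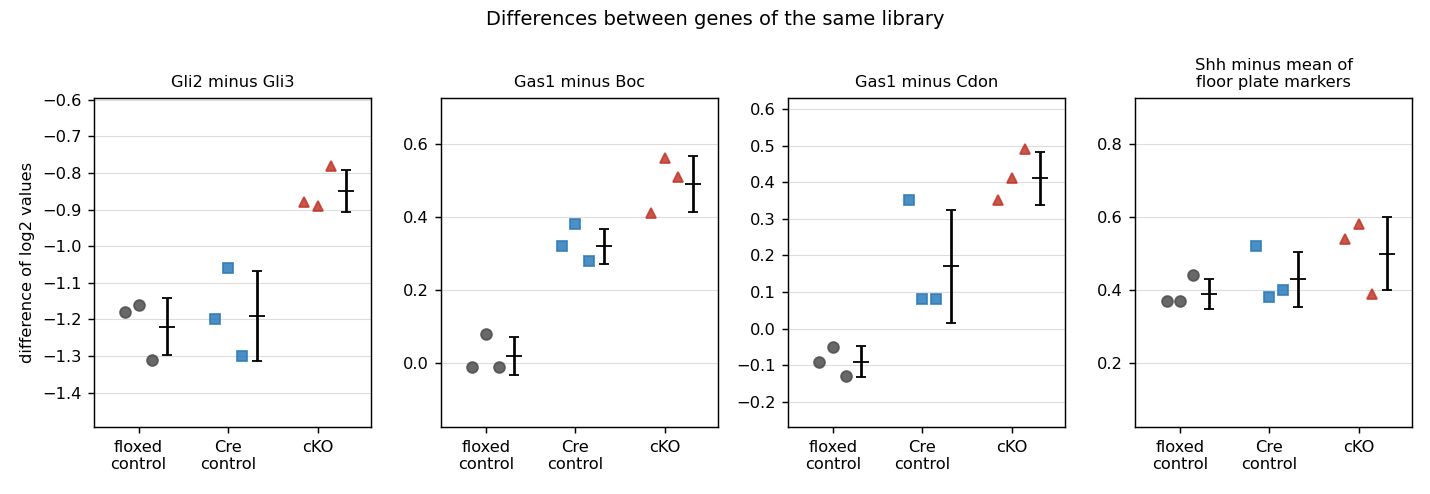
Within-library differences of log2 levels (Gli2 minus Gli3, Gas1 minus Boc, Gas1 minus Cdon, and Shh minus the mean of the floor plate markers) in each of the 9 libraries by genotype, with the mean and SD. The cKO libraries lie above all 6 controls for Gli2 minus Gli3, at -0.89 to -0.78, and for Gas1 minus Boc, at 0.41 to 0.56.

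The 250 bases before the start that RefSeq (GRCm38.p6) gives were read for the 7 of 9 genes with a window. The windows of Cdon and Gli3 lie inside the gene as GENCODE draws it and were left out, which leaves 5. Those of Smo, Kif7 and Gli2 are shown because these transducers were higher than in floxed control. Capitals mark the GC box GGGCGG, which binds Sp-family factors, on either strand. The windows are chr6:29735247-29735496 on the plus strand for Smo, chr7:79715708-79715957 on the minus strand for Kif7 and chr1:119053620-119053869 on the minus strand for Gli2.
Smo: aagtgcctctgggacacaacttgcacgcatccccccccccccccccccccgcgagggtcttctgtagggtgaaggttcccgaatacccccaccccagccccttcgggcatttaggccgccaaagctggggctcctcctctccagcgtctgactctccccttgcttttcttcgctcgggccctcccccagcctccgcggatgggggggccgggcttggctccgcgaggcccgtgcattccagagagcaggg
Kif7: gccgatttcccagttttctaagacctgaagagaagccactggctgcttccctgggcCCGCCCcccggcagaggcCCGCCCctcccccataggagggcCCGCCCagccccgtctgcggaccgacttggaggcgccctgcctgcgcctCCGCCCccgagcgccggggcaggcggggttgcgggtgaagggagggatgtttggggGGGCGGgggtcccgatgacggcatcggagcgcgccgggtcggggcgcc
Gli2: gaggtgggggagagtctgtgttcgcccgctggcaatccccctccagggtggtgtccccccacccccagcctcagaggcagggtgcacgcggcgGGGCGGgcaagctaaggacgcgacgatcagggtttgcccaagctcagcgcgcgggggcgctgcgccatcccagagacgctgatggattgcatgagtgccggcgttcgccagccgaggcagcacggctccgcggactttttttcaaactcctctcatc
The Kif7 window holds 5 GC boxes, Gli2 holds 1 and Smo holds 0. Of the 5 windows 4 hold at least 1, against 32.7% of 32851 windows of the same length. The GC content was 74.4% for Kif7, 68.4% for Smo and 67.2% for Gli2, against a median of 52.4% over all windows. The Gli consensus GACCACCCA, searched on both strands, is in 0 of the 5 windows and in 0.225% of all windows. The letters are a description of these windows, and 13 bases of the Kif7 window lie in an annotated exon.

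The other genes of the pathway were described by role. Of 37 genes 35 were tested, since the ligands Dhh and Ihh stayed below the filter. Of these 35, 7 were higher, 6 lower and 22 not past the test in cKO against floxed control, and 3, 0 and 32 against Cre control (limma). These were 37.1% and 8.57% of the 35, where 38.3% and 9.72% of all genes passed. The 3 called against Cre control were transcriptional targets of the pathway. Gli1, a Gli activator, had log2 differences of 1.08 and 1.05 against floxed and Cre control, and Hhip, a decoy that binds ligand, 1.34 and 1.28. The receptor Ptch1 had 0.67 and 0.75. The median of these 3 targets was 1.08 and 1.05, where that of the 9 genes upstream was 0.10 and -0.08.

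Of the 5 tested genes of ligand release, Scube1, a secreted protein that helps free the ligand, was higher than in floxed control (log2 0.15, adjusted p = 0.0388, limma). Of the 6 other surface proteins, the glypican Gpc3 was higher (0.53, adjusted p = 0.0443, limma) and the endocytic receptor Lrp2 lower (-0.26, adjusted p = 0.0447, limma). Of the 7 partners of Smo at the cilium, Evc and Evc2, which act together at the cilium base, were higher by 0.36 and 0.25, and the arrestins Arrb1 and Arrb2 had -0.28 and -0.14. The kinase genes Prkacb, a catalytic subunit of protein kinase A, and Gsk3b, which phosphorylate Gli proteins, were lower (log2 -0.24 and -0.26, adjusted p = 0.0152 and 0.0158, limma). Of the 8 genes of Gli regulation and turnover, Ulk3 was lower (log2 -0.27, adjusted p = 0.00357, limma). All differences named for these roles are against floxed control, and none of these genes passed against Cre control (limma). There Scube1 had -0.04, Gpc3 0.38, Lrp2 -0.09, Evc 0.17 and Evc2 0.08. Arrb1 had -0.15, Arrb2 -0.08, Prkacb -0.12, Gsk3b -0.22 and Ulk3 -0.12. Scube1 was 0.19 higher in Cre control than in floxed control, which did not pass.

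**Figure D5:**
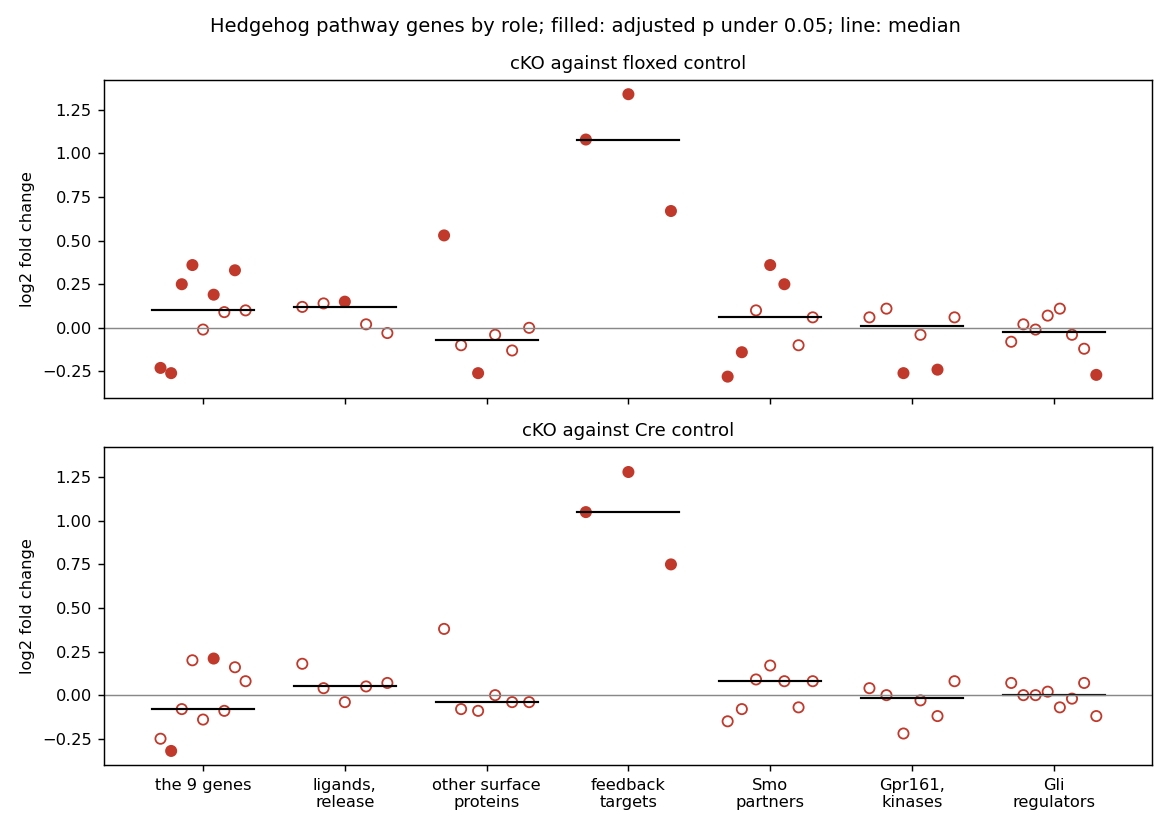
Log2 fold change of the Hedgehog pathway genes grouped by role, cKO against floxed control and against Cre control, with a line at each group's median and filled points past the test. The feedback targets Gli1, Ptch1 and Hhip lie between 0.67 and 1.34, apart from the 9 genes upstream, which lie between -0.32 and 0.36.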

How the data were processed

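RNA-seq of E13.5 midbrain was analysed from 1 deposited table of log2 values per gene and library. The submitters' processing notes name FastQC 0.10.1, kallisto 0.46.1, DESeq2 and mm10, without roles. The transformation behind the deposited log2 values is not given in the sources used here. They are normalised between libraries and low levels are compressed, so fold changes of low genes are understated. Of 27360 rows, 5764 had no gene name and were left out of the tests. Genes whose linear value reached 1 CPM in 3 or more libraries were tested (14029). Groups came from the sample titles, where the cKO titles spell the gene Gpt161. A mean per genotype was fitted over all 9 libraries with limma 3.58.1 (R 4.3.3, trended eBayes), with Benjamini-Hochberg adjustment over all 14029 genes. The scripts were tested on simulated data. Positions and exon lengths are from GENCODE (GRCm38). Named were the 9 genes, pathway genes past the threshold, the floxed gene, and, for each called gene, the 3 with the nearest profile, save items not reported here. The genes and lists were chosen with earlier results of these data known. Alternatives covered filters, normalisation, the replicate block and each library left out. Depth is unknown.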

Additional observations from a re-analysis of the deposited data

How the results depend on the processing

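Of the 378 recomputed log2 differences of the 9 genes, 327 kept direction and side of the threshold, 35 kept direction but lost the call, 3 gained it and 13 changed sign; the cause was not tested. Adding a fold change of 1.5 left 0 of the 9 called in each cKO comparison, and 410, 79 and 4 genes of all. Against floxed control, leaving out 1 library gave 3 to 5 of the 9 called (3 without floxed control replicate 3) and 3606 to 4821 genes. Against Cre control, 0 of the 9 were called with no filter (630 genes), 1 with only the 6 libraries compared (437 genes), 1 after median centring and 1 after quantile normalisation, and leaving out 1 library gave 0 to 3 of the 9 and 237 to 3292 genes. For Cre control against floxed control, the genes called were 4 with no filter, 3 with only 6 libraries, 13 without a trend and 1 to 57 with 1 library left out. Genes called against Cre control were 682 higher and 681 lower, but 532 and 831 after median centring.

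Values that changed sign were never called and arose with 1 library left out. Against floxed control, Shh was -0.05 (range with 1 library left out -0.05 to 0.19), and Gli3 0.07, 0.01 and 0.05 (-0.09 to 0.07). Against Cre control, Shh was 0.01 in each of 2 refits (-0.23 to 0.01). For Cre control against floxed control, Boc was -0.03 and -0.05 (-0.05 to 0.09), Sufu -0.02 in each of 2 refits (-0.02 to 0.08), and Kif7 0.01, 0.00 and 0.01 (-0.06 to 0.01).

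Same-numbered libraries correlated at -0.0272 to 0.260, not above 0.1 for each pair, and the labels tie the numbers to no shared litter or day, so the numbers were not used as pairs. As a hint from the data, 7 of 9 libraries correlated best with their own number. With the replicate block 6 of the 9 genes were called against floxed control and 4 against Cre control, where Boc (adjusted p = 0.0134, limma) and Gli2 (0.0421) passed. Over all genes the block gave 5683, 1774 and 9 calls.

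The within-library differences were refitted by alternatives chosen after seeing the data. Gli2 minus Gli3 kept an unadjusted exact permutation p of 0.0119 to 0.0357 in each refit, while Gas1 minus Boc and Gas1 minus Cdon reached 0.0714 by exact permutation with 1 library left out. The number of libraries limits the precision.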

Other observations

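The genes nearest to each called Hedgehog gene were found by the root mean square difference of log2 levels over the 9 libraries, after centring each gene on its own mean. For Smo, whose own root mean square deviation was 0.144, they were Gnl3, a nucleolar protein (0.0232), Mrpl54, a mitochondrial ribosomal protein (0.0250), and Mob1a (0.0255). Kif7 (0.104) was nearest to Dvl2, a Wnt transducer (0.0366), Slc39a7 (0.0382) and Tpm3 (0.0385). Gli2 (0.178) was nearest to Wdr90 (0.0541) and Recql4 (0.0597). Cdon (0.159) was nearest to Glcci1 (0.0604), Nfat5 (0.0661) and Ino80d (0.0683). Boc (0.149) was nearest to E130112N10Rik (0.0497), Reg2 (0.0544) and Cyp46a1 (0.0555). Gas1 (0.160) was nearest to Tcirg1 (0.0634), Ggta1 (0.0641) and Uevld (0.0698). These are descriptions over libraries that share genotypes.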
